A study of Mus musculus with 9 samples.

Results

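FoxO target genes and the FoxO factor Foxo3 were followed in cells sorted from mouse forelimb buds at E10.5. The set holds 10 genes, Ppargc1a, Gadd45a, Fbxo32, Trim63, Cdkn1b, Pdk4, Sesn1, Sesn3, Txnip and Foxo3, chosen by name as known FoxO targets or, for Foxo3, as a FoxO factor. The choice was made with earlier results of these data known. They stand among 18193 genes with a probe set that carries 1 gene symbol, and are read by 24 of the 45037 probe sets tested. Transcripts were measured on 9 Affymetrix expression arrays, which form 3 groups of 3. Cells called PAX3-FKHR GFP+ came from Pax3PAX3-FKHR/GFP embryos, in which one Pax3 allele encodes PAX3-FKHR, the DNA binding part of PAX3 joined to the activation domain of FKHR, and the other encodes GFP. Control GFP+ cells came from Pax3GFP/+ embryos, which keep 1 functional Pax3 allele. GFP- cells are the remaining cells of the sort, and their labels give no genotype. The study describes them as coming from Pax3GFP/+ embryos, the genotype of the control, while its methods also name a Pax3+/+ group. All GFP+ cells thus carry the GFP allele in place of Pax3, the fusion allele had been activated with PGK-Cre, whose promoter is active in most cells, and each sample was a pool of limb buds.

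FKHR is the older name of FOXO1, so that the fusion carries the activation domain of a FoxO factor under the DNA binding of PAX3. FoxO factors are forkhead transcription factors that insulin and growth factor signalling, through PI3K and AKT, keeps out of the nucleus. When they are nuclear they activate genes for cell cycle arrest, stress defence, a switch from glucose to fat oxidation and, in adult muscle, protein breakdown by ubiquitin ligases. The comparison of PAX3-FKHR GFP+ with control GFP+ cells asks which transcripts differ in the presence of the fusion. Cells with the fusion also lack the functional Pax3 allele that control cells keep. The gain of the fusion and the loss of that allele cannot be told apart. The comparison of control GFP+ with GFP- cells asks which are particular to the Pax3-expressing cells of the limb bud. That of PAX3-FKHR GFP+ with GFP- cells joins the sort and the fusion allele, whose parts in it cannot be told apart.

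The values are RMA values per probe set on the log2 scale, and each difference is a log2 difference from 1 limma fit over the 9 arrays, with its standard error. A probe set was called higher or lower at an adjusted p under 0.05, with Benjamini-Hochberg adjustment over all 45037 probe sets, and a log2 difference of at least 0.5, which is a fold of 1.414. A gene is represented by its main probe set, the one with the highest mean over the 9 arrays. Probe sets differ in affinity, so levels are not set against each other between genes. The median of all values was 5.11, and the share of probe sets that lie below a given mean is given as its percentile. With 3 arrays against 3, the smallest two-sided p that an exact permutation test allows is 0.1.

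The sorts matched their labels on limb muscle progenitor markers, of which 9 were measured. Their mean log2 value was between 8.92 and 9.14 in PAX3-FKHR GFP+ cells, between 8.73 and 9.05 in control GFP+ cells and between 4.81 and 5.24 in GFP- cells, and all 9 were called higher in either GFP+ group than in GFP- cells. Pax3 read 7.15, 6.83 and 7.33 in PAX3-FKHR GFP+ cells, against 9.92, 8.94 and 10.22 in control GFP+ cells. Markers of differentiating skeletal muscle averaged between 7.90 and 8.42 in PAX3-FKHR GFP+ cells, between 6.85 and 7.85 in control GFP+ cells and between 4.65 and 5.85 in GFP- cells. Of these 10 markers, 1, Tnnt1, was called higher in the presence of PAX3-FKHR, and 7 in control GFP+ cells and 10 in PAX3-FKHR GFP+ cells were called higher than in GFP- cells. Limb mesenchyme markers averaged between 7.11 and 7.66 in PAX3-FKHR GFP+ cells, between 7.44 and 7.65 in control GFP+ cells and between 9.30 and 9.59 in GFP- cells. Neural crest and neuron markers averaged between 6.16 and 6.93 in PAX3-FKHR GFP+ cells, between 6.45 and 6.83 in control GFP+ cells and between 4.83 and 4.92 in GFP- cells. Blood and macrophage markers averaged between 5.47 and 6.99 in PAX3-FKHR GFP+ cells, between 5.40 and 6.97 in control GFP+ cells and between 6.17 and 8.64 in GFP- cells. For limb ectoderm these ranges were 5.07 to 5.58 in PAX3-FKHR GFP+ cells, 4.86 to 5.38 in control GFP+ cells and 5.59 to 6.73 in GFP- cells. Endothelial markers overlapped between the groups, at 5.57 to 6.12 in PAX3-FKHR GFP+ cells, 5.65 to 6.89 in control GFP+ cells and 5.07 to 6.17 in GFP- cells. Control GFP+ replicate 3 stood apart, with an array weight of 0.236 against 0.604 to 2.69 for the other arrays and correlations of 0.978 and 0.985 with its group. GFP- replicate 3 read 9.03 for the muscle actin Actc1, against 4.79 and 5.18 in the other GFP- arrays. In such bulk samples, fewer cells of a type and less RNA per cell cannot be told apart.

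**Figure D1:**
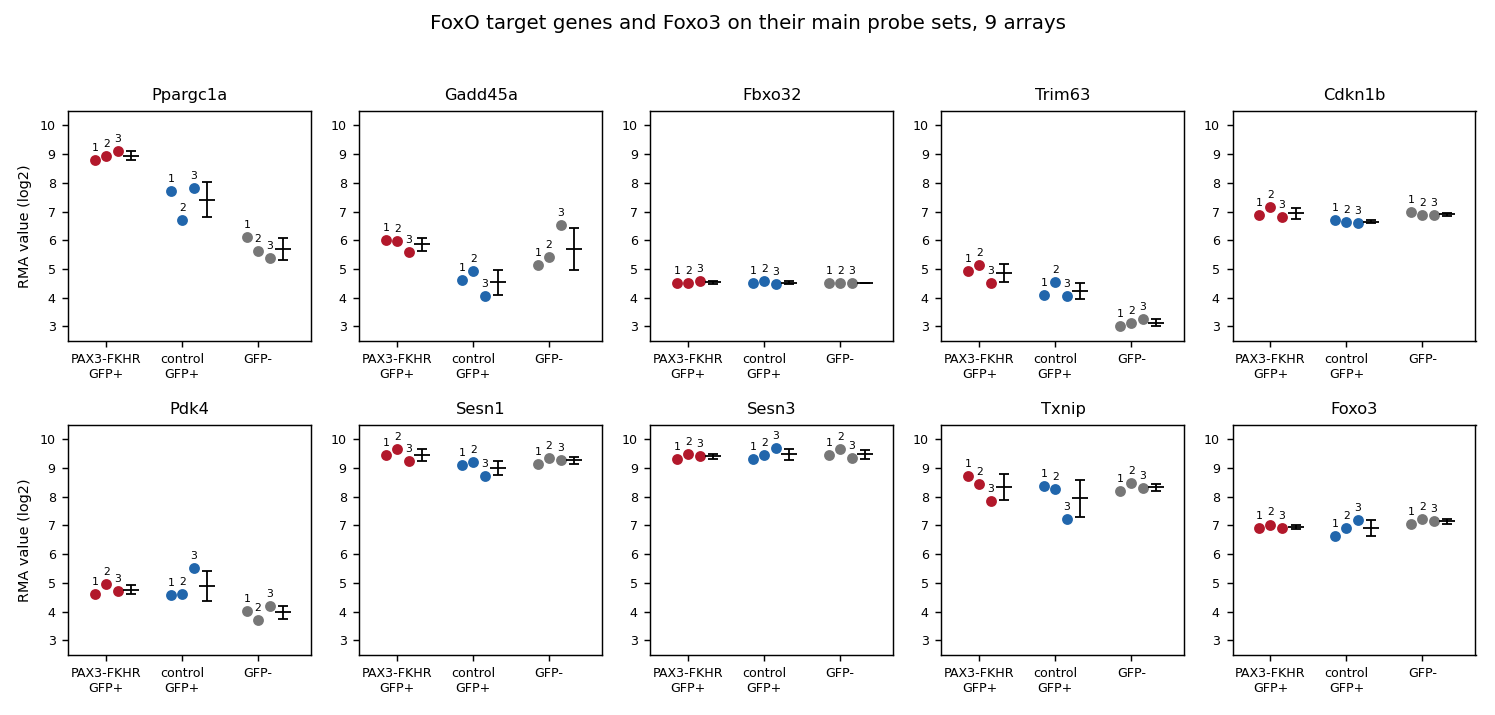
RMA values on the log2 scale of the main probe set of each of the 10 genes on the 9 arrays, by group, with points numbered by replicate and bars for the mean ± SD (n = 3). Ppargc1a and Trim63 are highest in PAX3-FKHR GFP+ cells and lowest in GFP- cells, and for Fbxo32, Sesn3 and Foxo3 the groups lie close together.

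Across the set, no gene was called on its main probe set between PAX3-FKHR GFP+ and control GFP+ cells, where limma called 0.61% of all genes higher and 0.203% lower. An unadjusted p under 0.05 was reached by 4 of the 10 genes, Ppargc1a, Gadd45a, Trim63 and Sesn1, beside 8.37% of all genes. The local pooled error test of the study's methods called 2, Ppargc1a and Gadd45a, beside 1.06% of all genes. The values were above those of the control on every array for 4 genes, Ppargc1a, Gadd45a, Cdkn1b and Sesn1, where 5.42% of all genes behaved so, and below them on every array for 0, where the share of all genes was 8.88%. The median difference over the 10 genes was 0.34, beside -0.03 over all genes. Over the 24 probe sets, 4 were called higher, all of them of Ppargc1a, and 0 lower, where 0.395% of all probe sets were called higher. When pairs of equal replicate number entered as a block on these 6 arrays, 2 of the 10 genes were called higher, Ppargc1a and Gadd45a, where 0.912% of all genes were. Ppargc1a, Gadd45a and Trim63 stand in lists that the study chose on these arrays. The shares of all genes are therefore given for scale and do not test the set.

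Between PAX3-FKHR GFP+ and GFP- cells, 2 of the 10 genes were called higher, Ppargc1a and Trim63, and 0 lower, where 3.9% and 2.79% of all genes were. Every PAX3-FKHR GFP+ array lay above every GFP- array for 3 genes, the same pair and Pdk4, beside 17.8% of all genes, and below it for 1, Foxo3, beside 10.1%. Their median difference was 0.09, beside 0.05 over all genes. On probe sets, 8 of the 24 were called higher, 5 of Ppargc1a, 2 of Fbxo32 and 1 of Trim63, where 2.8% of all probe sets were. Between control GFP+ and GFP- cells, 3 genes were called higher, Ppargc1a, Trim63 and Pdk4, and 0 lower, where 2.79% and 1.93% of all genes were. Every control GFP+ array lay above every GFP- array for these 3 genes, beside 17.2% of all genes, and below it for Gadd45a and Cdkn1b, 2 genes, beside 6.96%. Here the median difference was -0.12, beside 0.08 over all genes, and 6 of the 24 probe sets were called higher, where 1.84% of all probe sets were. The 3 comparisons share arrays, so that their results are not independent of each other.

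**Figure D2:**
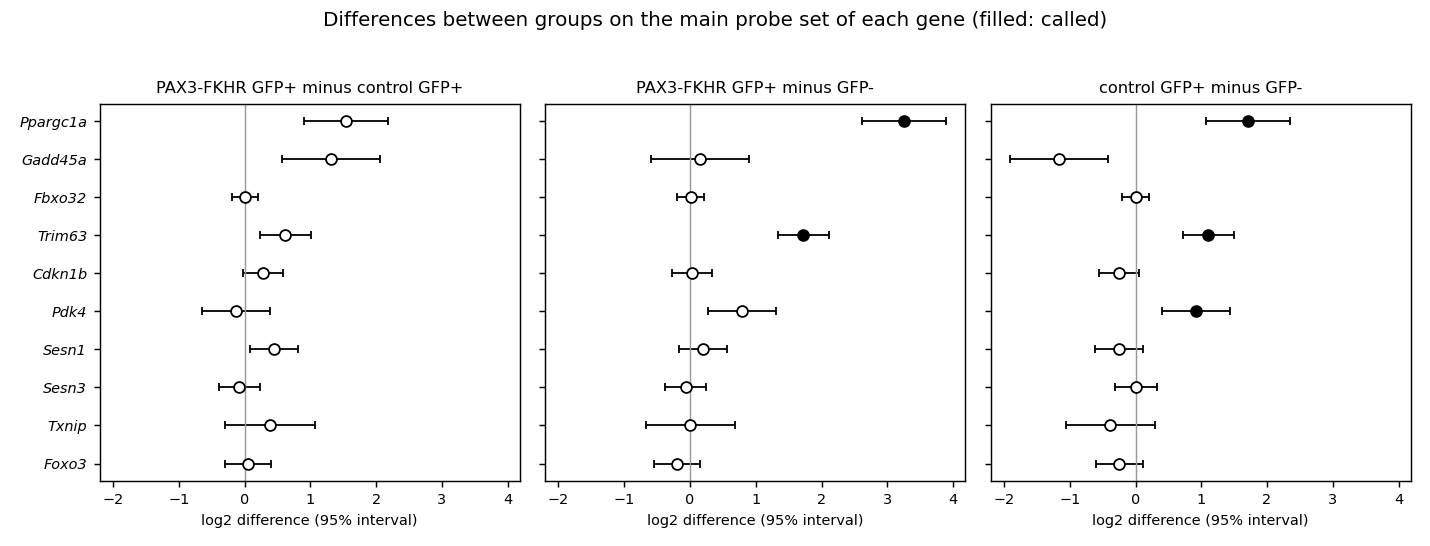
Log2 difference on the main probe set of each gene, with its 95% interval from the limma fit, for PAX3-FKHR GFP+ minus control GFP+, PAX3-FKHR GFP+ minus GFP- and control GFP+ minus GFP-, with filled points for called differences. Ppargc1a has the largest difference of the 10 genes in each panel, 1.54, 3.25 and 1.71.

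Among the metabolic targets, Ppargc1a was the member with the clearest differences. It encodes PGC-1alpha, a coactivator that drives mitochondrial gene expression and, in adult muscle, oxidative fibres. Its main probe set, 1460336_at, read 8.81, 8.92 and 9.12 in PAX3-FKHR GFP+ cells, 7.70, 6.71 and 7.81 in control GFP+ cells and 6.10, 5.63 and 5.37 in GFP- cells. The 3 groups did not overlap. Their means lay at percentiles 90.8, 78.1 and 58.4 of all probe sets. The difference of PAX3-FKHR GFP+ over control GFP+ cells was 1.54 ± 0.29 (SE, n = 3 each), a fold of 2.91, with an adjusted p of 0.0522, which misses the threshold. With the replicate block on the 6 arrays it was called, with an adjusted p of 0.0192. Ppargc1a was higher by 3.25 ± 0.29, a fold of 9.52, in PAX3-FKHR GFP+ than in GFP- cells (adjusted p = 0.000111), and by 1.71 ± 0.29, a fold of 3.27, in control GFP+ than in GFP- cells (adjusted p = 0.00706). Both calls held without any 1 of the arrays compared. Without control GFP+ replicate 3, the difference in the presence of PAX3-FKHR was 1.75, with an adjusted p of 0.0514. Over the 6 fits that each leave out 1 array, this difference ran from 1.19 to 1.75. It was called in 0 of these, with adjusted p between 0.0514 and 0.207. Over 13 other settings it was called in 7, with adjusted p between 7.57e-05 and 0.136.

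The other 4 probe sets of Ppargc1a were all called higher in the presence of PAX3-FKHR. Probe set 1434099_at read 7.03, 7.23 and 7.14 in PAX3-FKHR GFP+ cells, 5.38, 5.71 and 5.66 in control GFP+ cells and 3.54, 3.37 and 3.83 in GFP- cells, 3 groups with wide gaps between them. The difference with the fusion was 1.55 ± 0.15 (SE; adjusted p = 0.00141), and those over GFP- cells were 3.55 ± 0.15 for PAX3-FKHR GFP+ (adjusted p = 1.96e-06) and 2.00 ± 0.15 for control GFP+ cells (adjusted p = 7.36e-05). Probe set 1456395_at read 7.39, 7.22 and 7.08 in PAX3-FKHR GFP+ cells, 5.63, 5.60 and 6.10 in control GFP+ cells and 4.26, 4.42 and 4.54 in GFP- cells. Its difference with the fusion was 1.45 ± 0.16 (adjusted p = 0.00358). Probe set 1434100_x_at, whose suffix marks probes that can match other transcripts, read 7.14, 7.42 and 7.20 in PAX3-FKHR GFP+ cells, 5.66, 5.83 and 6.11 in control GFP+ cells and 3.80, 3.88 and 4.18 in GFP- cells. It was 1.39 ± 0.16 higher with the fusion (adjusted p = 0.00423). The dimmest, 1437751_at, read 5.42, 5.85 and 5.15 in PAX3-FKHR GFP+ cells, 4.21, 4.39 and 3.53 in control GFP+ cells and 3.10, 3.78 and 3.53 in GFP- cells, and here the control and the GFP- arrays overlapped. It was 1.43 ± 0.26 higher with the fusion (adjusted p = 0.0419), and it was not called between control GFP+ and GFP- cells, at 0.58 ± 0.26 (adjusted p = 0.221). On all 5 probe sets the difference in the presence of PAX3-FKHR thus lay between 1.39 and 1.55. The calls of 1434099_at, 1456395_at and 1434100_x_at held without any 1 of the 6 arrays. That of 1437751_at was lost without any 1 of 5 of them, all except control GFP+ replicate 2, with adjusted p between 0.0695 and 0.168. The mean over the 10 markers of differentiating muscle, given above, was also higher in PAX3-FKHR GFP+ than in control GFP+ cells. Its ranges came close without overlap (lowest 7.90 against highest 7.85). The single markers differed by -0.05 to 2.13, with 1 called, and their part in the Ppargc1a difference was not tested.

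**Figure D3:**
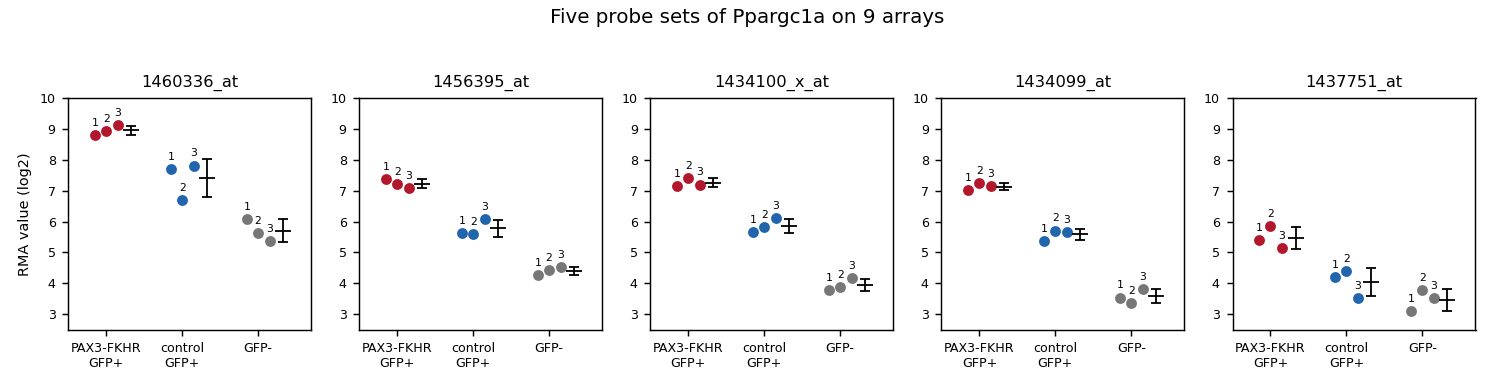
RMA values on the log2 scale of the 5 probe sets of Ppargc1a on the 9 arrays, by group, with points numbered by replicate and bars for the mean ± SD (n = 3). On each probe set the PAX3-FKHR GFP+ arrays lie above all control GFP+ arrays, by 1.39 to 1.55 in the mean, and the control lies above GFP- cells on 4 of the 5.

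RefSeq promoter windows of the 250 bases before the start of transcription (GRCm38.p6) were at hand for 9 of the 10 genes. They were searched on both strands for the forkhead core GTAAACA, the shorter TAAACA that lies within it, the insulin response core CAAAACA, the paired domain core GTCACG and the E-box CANNTG, which MyoD and its relatives bind. These letters occur in 3.2%, 12.0%, 5.6%, 6.9% and 66.2% of all 32851 windows of this length. The windows of Ppargc1a, Trim63 and Txnip are shown, the first 2 because these genes were called over GFP- cells in both GFP+ groups and the third because, with Trim63, it alone of the 9 holds the whole forkhead core. The window of Ppargc1a lies on the minus strand at chr5:51567726-51567975, within the span that RefSeq gives the gene. It holds none of the first 4 motifs but 6 E-boxes, in capitals. As many or more occur in 0.27% of windows. That count was picked as the highest among the windows of the set. The windows were not matched for base composition, so this share does not test for enrichment.
Ppargc1a: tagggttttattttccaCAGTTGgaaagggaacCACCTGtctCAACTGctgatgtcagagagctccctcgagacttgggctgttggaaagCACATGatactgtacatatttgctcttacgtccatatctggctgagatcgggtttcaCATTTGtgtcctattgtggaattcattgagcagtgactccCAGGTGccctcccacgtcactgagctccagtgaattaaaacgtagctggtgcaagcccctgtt

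Pdk4 encodes a kinase that inactivates pyruvate dehydrogenase and so spares glucose. Its only probe set, 1417273_at, read 4.63, 4.96 and 4.73 in PAX3-FKHR GFP+ cells, 4.58, 4.61 and 5.51 in control GFP+ cells and 4.02, 3.72 and 4.19 in GFP- cells. Both GFP+ groups lay above the GFP- arrays and overlapped each other, with control GFP+ replicate 3 the highest array of all. It was higher by 0.92 ± 0.23 (SE, n = 3 each) in control GFP+ than in GFP- cells (adjusted p = 0.0434). This call was lost without any 1 of the GFP- arrays, with adjusted p between 0.0692 and 0.141. The difference of PAX3-FKHR GFP+ over GFP- cells was 0.79 ± 0.23 (adjusted p = 0.0711), and that over control GFP+ cells was -0.13 ± 0.23, with a 95% interval of -0.65 to 0.39.

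Of the ubiquitin ligases, Trim63 followed the order of Ppargc1a. It encodes MuRF1, a RING ligase that marks proteins of the adult sarcomere for breakdown. Its only probe set, 1438704_at, read 4.92, 5.14 and 4.51 in PAX3-FKHR GFP+ cells, 4.11, 4.55 and 4.05 in control GFP+ cells and 3.03, 3.11 and 3.26 in GFP- cells. Both GFP+ groups lay clear of GFP- cells, and replicate 3 of the PAX3-FKHR arrays lay just below the highest control array. These are low values, at percentiles 45.8, 34.9 and 14.2 in the 3 groups. With no detection calls used, the GFP- level is not shown to lie above background, so no fold is given. Trim63 was higher by 1.72 ± 0.18 (SE, n = 3 each) in PAX3-FKHR GFP+ than in GFP- cells (adjusted p = 0.000273), and by 1.11 ± 0.18 in control GFP+ than in GFP- cells (adjusted p = 0.00530). Both calls held without any 1 of the arrays compared. The markers of muscle and of neural cells given above were also higher in both GFP+ groups than in GFP- cells, and their part in the Trim63 difference was not tested. The difference in the presence of PAX3-FKHR was 0.62 ± 0.18, with a 95% interval of 0.23 to 1.01 and an adjusted p of 0.305, and it was not called with the replicate block either (adjusted p = 0.0966). The window before Trim63, on the plus strand at chr4:134314870-134315119, holds the forkhead core on the opposite strand, 194 bases before the start, where it reads as the letters in capitals. It also holds 3 E-boxes, at 149, 72 and 50 bases before the start, which are left in lower case.
Trim63: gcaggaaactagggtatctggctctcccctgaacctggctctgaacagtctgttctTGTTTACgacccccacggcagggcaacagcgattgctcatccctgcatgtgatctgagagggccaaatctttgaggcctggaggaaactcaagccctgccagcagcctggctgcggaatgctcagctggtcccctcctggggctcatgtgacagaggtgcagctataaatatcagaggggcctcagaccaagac

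Fbxo32 encodes atrogin-1, an F-box protein tied, like MuRF1, to muscle wasting, and its 3 probe sets differed from each other. The main one, 1417522_at, stayed between 4.46 and 4.59 on all 9 arrays, with differences of 0.01 ± 0.09 in PAX3-FKHR GFP+ over control GFP+ cells, 0.01 ± 0.09 over GFP- cells and 0.00 ± 0.09 in control GFP+ over GFP- cells. It gave the same value, 4.5229, on all 3 GFP- arrays and on control GFP+ replicate 1. Whether this probe set follows the transcript level was not tested, so its flat values do not show that Fbxo32 is unchanged. Probe set 1448747_at read 5.01, 5.02 and 4.60 in PAX3-FKHR GFP+ cells, 4.27, 4.44 and 4.71 in control GFP+ cells and 4.10, 4.06 and 3.73 in GFP- cells. Both GFP+ groups lay above GFP- cells, and they overlapped each other. It was higher by 0.92 ± 0.16 in PAX3-FKHR GFP+ than in GFP- cells (adjusted p = 0.00739), without any 1 array too. The control GFP+ difference from GFP- cells was 0.51 ± 0.16 (adjusted p = 0.0989), and that in the presence of PAX3-FKHR was 0.40 ± 0.16 (adjusted p = 0.633). Probe set 1435265_at read 3.98, 4.51 and 3.79 in PAX3-FKHR GFP+ cells, 3.92, 4.03 and 3.54 in control GFP+ cells and 3.23, 3.44 and 3.50 in GFP- cells. It was called in PAX3-FKHR GFP+ over GFP- cells at 0.70 ± 0.19 (adjusted p = 0.0487), and the call was lost without any 1 of 5 of the 6 arrays, all except PAX3-FKHR GFP+ replicate 3 (adjusted p between 0.0826 and 0.164). In PAX3-FKHR GFP+ over GFP- cells, Fbxo32 was thus called on 2 of its 3 probe sets, and not on the one with the highest mean over the 9 arrays. In PAX3-FKHR GFP+ cells 1448747_at was the brighter, with a mean of 4.88 against 4.53 for 1417522_at, and over the 6 GFP+ arrays alone it becomes the main probe set, with the difference of 0.40 given above and no call.

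Among the genes of growth arrest, Gadd45a had its lowest values in the control GFP+ group. It encodes a small stress-induced protein that binds PCNA and cyclin-dependent kinase complexes. Its only probe set, 1449519_at, read 6.0, 5.98 and 5.58 in PAX3-FKHR GFP+ cells, 4.62, 4.93 and 4.06 in control GFP+ cells and 5.15, 5.42 and 6.54 in GFP- cells. Every control array lay below every array of the other groups, while PAX3-FKHR GFP+ and GFP- arrays overlapped. The control mean lay at percentile 40.4. With no detection calls used, it is not shown to lie above background, so no fold is given. The difference in the presence of PAX3-FKHR was 1.32 ± 0.33 (SE, n = 3 each), with a 95% interval of 0.57 to 2.06, and it was not called (adjusted p = 0.207). With the replicate block on the 6 arrays it was 1.32 ± 0.15 and was called (adjusted p = 0.00756). In control GFP+ cells it was -1.17 ± 0.33 relative to GFP- cells (adjusted p = 0.0704), and in PAX3-FKHR GFP+ cells 0.15 ± 0.33 (adjusted p = 0.856). Without control GFP+ replicate 3 the difference in the presence of PAX3-FKHR was 1.08 (adjusted p = 0.479), and without GFP- replicate 3 that of control GFP+ over GFP- cells was -0.75 (adjusted p = 0.161). The markers of blood and macrophages averaged 8.64 on GFP- replicate 3, against 6.17 and 8.07 on the other GFP- arrays, and those of limb ectoderm 6.73, against 5.59 and 6.37. Gadd45a and both marker lists were thus highest on the same GFP- array, both lists had lower means in each GFP+ group, and their part in the Gadd45a differences from GFP- cells was not tested.

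Cdkn1b encodes p27, an inhibitor of cyclin-dependent kinases that FoxO factors raise in arrested cells. Its main probe set, 1434045_at, read 6.87, 7.14 and 6.80 in PAX3-FKHR GFP+ cells, 6.71, 6.63 and 6.61 in control GFP+ cells and 6.98, 6.87 and 6.87 in GFP- cells. The control arrays were the 3 lowest, and no difference was called. It was 0.29 ± 0.14 in the presence of PAX3-FKHR (adjusted p = 0.725), 0.03 ± 0.14 in PAX3-FKHR GFP+ over GFP- cells and -0.25 ± 0.14 in control GFP+ over GFP- cells (adjusted p = 0.314). The second probe set, 1419497_at, read 3.67, 4.29 and 4.12 in PAX3-FKHR GFP+ cells, 4.05, 3.48 and 6.50 in control GFP+ cells and 4.68, 4.50 and 3.46 in GFP- cells. Here control GFP+ replicate 3 lay far above the rest, and the difference in the presence of PAX3-FKHR was -0.65 ± 0.64 (adjusted p = 0.852). In the window before Cdkn1b the shorter forkhead core occurs once, 17 bases before the start, and the paired domain core once, at 174 bases.

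**Figure D4:**
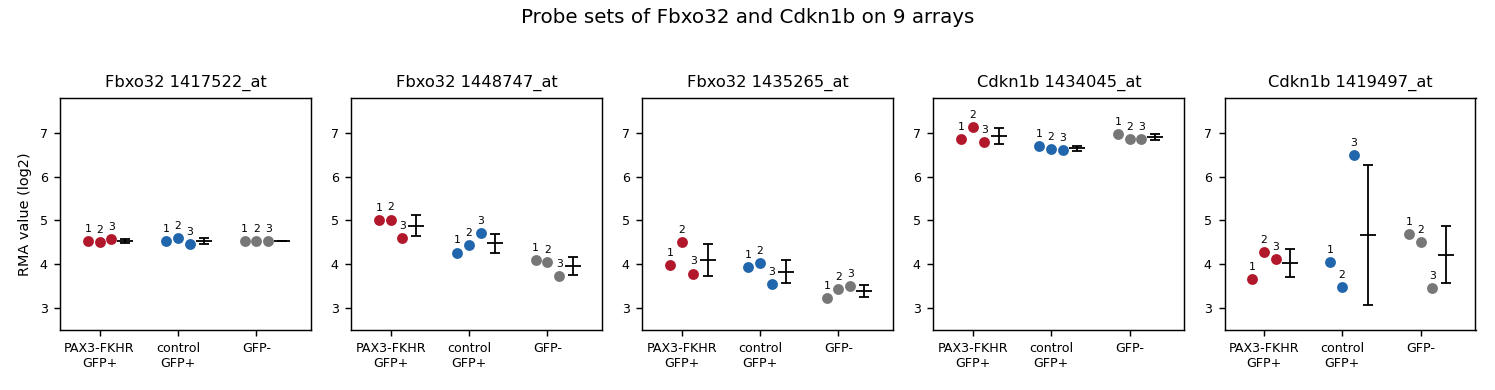
RMA values on the log2 scale of the 3 probe sets of Fbxo32 and the 2 of Cdkn1b on the 9 arrays, by group, with points numbered by replicate and bars for the mean ± SD (n = 3). The main probe set of Fbxo32 is flat, with the same value on all GFP- arrays, and PAX3-FKHR GFP+ arrays lie above all GFP- arrays on the other 2. Control GFP+ replicate 3 reads 6.50 on 1 probe set of Cdkn1b.

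The stress sensors Sesn1 and Sesn3 encode sestrins, which restrain mTORC1 through GATOR when amino acids are short. Sesn1 read 9.46, 9.65 and 9.25 in PAX3-FKHR GFP+ cells, 9.10, 9.20 and 8.72 in control GFP+ cells and 9.14, 9.36 and 9.28 in GFP- cells on its main probe set, 1433711_s_at. The PAX3-FKHR arrays lay above all control arrays, by 0.45 ± 0.16 (SE, n = 3 each), with a 95% interval of 0.09 to 0.81 and no call (adjusted p = 0.563). The other 3 probe sets differed by 0.63 ± 0.19, 0.20 ± 0.12 and 0.06 ± 0.18 in the same comparison, with adjusted p of 0.346, 0.780 and 0.956. Against GFP- cells, the 4 probe sets ran from -0.26 to 0.45 in PAX3-FKHR GFP+ cells and from -0.43 to -0.19 in control GFP+ cells, with none called. Sesn3 read 9.30, 9.49 and 9.43 in PAX3-FKHR GFP+ cells, 9.32, 9.44 and 9.70 in control GFP+ cells and 9.44, 9.64 and 9.34 in GFP- cells on 1449303_at. The groups overlapped throughout, and the differences on that probe set lay between -0.08 and 0.01 with standard errors of 0.14. On the second probe set, 1453313_at, they lay between 0.04 and 0.26, and none was called.

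Txnip encodes a thioredoxin binding protein that also lowers glucose uptake. Its main probe set, 1415996_at, read 8.72, 8.43 and 7.86 in PAX3-FKHR GFP+ cells, 8.38, 8.26 and 7.21 in control GFP+ cells and 8.21, 8.47 and 8.32 in GFP- cells. Replicate 3 was the lowest array in both GFP+ groups, and the groups overlapped. The difference in the presence of PAX3-FKHR was 0.39 ± 0.31, with a 95% interval of -0.29 to 1.07 (adjusted p = 0.817), and the second probe set differed by 0.13 ± 0.15. The window before Txnip, on the plus strand at chr3:96557707-96557956, holds the forkhead core 121 bases before the start, in capitals.
Txnip: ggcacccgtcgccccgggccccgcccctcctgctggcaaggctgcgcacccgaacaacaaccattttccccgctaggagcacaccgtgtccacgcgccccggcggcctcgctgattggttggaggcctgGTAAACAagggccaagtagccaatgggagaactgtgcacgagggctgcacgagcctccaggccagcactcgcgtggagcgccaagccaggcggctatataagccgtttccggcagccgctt

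Foxo3, the FoxO factor of the set, gave no called difference on any of its 3 probe sets, and control GFP+ against GFP- cells on 1434832_at alone had an unadjusted p under 0.05 (0.0182). The main one, 1434831_a_at, read 6.92, 7.03 and 6.91 in PAX3-FKHR GFP+ cells, 6.62, 6.91 and 7.18 in control GFP+ cells and 7.05, 7.23 and 7.15 in GFP- cells. The control arrays spread more widely than those of either other group. The difference in the presence of PAX3-FKHR was 0.05 ± 0.16 (SE, n = 3 each), with a 95% interval of -0.30 to 0.40 (adjusted p = 0.961). It was -0.19 ± 0.16 in PAX3-FKHR GFP+ and -0.24 ± 0.16 in control GFP+ relative to GFP- cells (adjusted p = 0.559 and 0.399). Probe set 1434832_at stood at -0.35 ± 0.17 and -0.47 ± 0.17 in the same comparisons (adjusted p = 0.287 and 0.137), and 1450236_at lay between 3.84 and 3.96 on all arrays. A further probe set that carries several gene symbols was left out.

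The genes of the set did not move as 1 block over the 9 arrays. Of their 45 pairs, 3 had a Pearson r over 0.8, Ppargc1a with Trim63 (0.868), Sesn1 with Txnip (0.806) and Gadd45a with Sesn1 (0.803), and 22 had an r under 0. These values describe 9 arrays that share 3 groups. Among 1250 genes with an SD of at least 0.5 over the arrays, those with the pattern most like Ppargc1a were Syt9 (r = 0.988), Pde4dip (r = 0.971) and Slit1 (r = 0.97). Pde4dip averaged 7.55 in PAX3-FKHR GFP+ cells, 6.27 in control GFP+ cells and 4.51 in GFP- cells. The pattern of Trim63 was most like those of Cck (r = 0.991), Scn3a (r = 0.990) and Ppp1r14a (r = 0.988), and that of Pdk4 most like those of Dkk2 (r = 0.949), Fzd4 (r = 0.938) and Txnrd3 (r = 0.936). An r over 0.9 was reached by 108 genes with Ppargc1a, 193 with Trim63 and 14 with Pdk4.

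The wider pathway was read from 10 lists of upstream regulators, further targets, partners and paralogues, of which 198 of 217 genes were measured. Between PAX3-FKHR GFP+ and control GFP+ cells limma called 0 of them in either direction, 16 had an unadjusted p under 0.05, beside the 8.37% of all genes, and the local pooled error test called 0, beside 1.06%. With the replicate block on the 6 arrays, 2 were called higher, Cdkn1c and Rragd, beside 0.912% of all genes. The median difference was 0.01, beside -0.03 over all genes. Of the 198 genes, limma called 18 higher and 5 lower in PAX3-FKHR GFP+ than in GFP- cells, beside 3.9% and 2.79% of all genes, while control GFP+ cells against GFP- cells gave 8 and 2, beside 2.79% and 1.93%. The local pooled error test called 25 of the 198 in PAX3-FKHR GFP+ and 10 in control GFP+ cells against GFP- cells, beside 7.01% and 4.01% of all genes, and 56 and 43 had an unadjusted p under 0.05, beside 19.2% and 19.5%. The medians over the 198 genes were 0.05 and 0.08, beside 0.05 and 0.08 over all genes. The counts of the single lists are limma calls on main probe sets, unless another test or probe set is named. They stand beside the shares of all genes just given. Over all 45037 probe sets, limma called 3061 in PAX3-FKHR GFP+ against GFP- cells, 1261 of them higher. In control GFP+ against GFP- cells it called 2631, of which 827 were higher.

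Among FoxO factors and their upstream regulators, with 27 genes measured, 4 were called higher and 1 lower in PAX3-FKHR GFP+ than in GFP- cells. Of all genes 3.9% and 2.79% were. In control GFP+ against GFP- cells 2 were called higher, beside 2.79% of all genes, and 0 lower, beside 1.93%. The local pooled error test called 4 there (Pik3cb, Sgk1, Irs1 and Irs2, not Foxo1), beside 4.01% of all genes. In PAX3-FKHR GFP+ against GFP- cells it called 6, among them Foxo1, Foxo4 and Irs1, beside 7.01%. An unadjusted p under 0.05 was reached by 8 of the 27 in each of these comparisons. Foxo1, the mouse counterpart of FKHR, on its main probe set, read 8.64, 8.98 and 8.95 in PAX3-FKHR GFP+ cells, 8.03, 8.24 and 8.01 in control GFP+ cells and 7.37, 7.52 and 7.44 in GFP- cells. On this probe set the groups were stepped and did not overlap. It was higher by 1.41 ± 0.14 in PAX3-FKHR GFP+ than in GFP- cells (adjusted p = 0.000279) and by 0.65 ± 0.14 in control GFP+ than in GFP- cells (adjusted p = 0.0256), and its 0.76 ± 0.14 over control GFP+ cells was not called (adjusted p = 0.0551). The call in control GFP+ cells was lost without any 1 of 5 of the 6 arrays, all except control GFP+ replicate 3 (adjusted p between 0.0573 and 0.0940), and whether the fusion transcript contributes to these probes was not tested. Of the other 3 probe sets of Foxo1, 2 were called in PAX3-FKHR GFP+ over GFP- cells (0.94 ± 0.21 and 1.26 ± 0.23) and 0 in control GFP+ over GFP- cells, where these 2 overlapped between the groups (0.26 ± 0.21 and 0.34 ± 0.23). The third, the dimmest, stood at -0.33 ± 0.17 in PAX3-FKHR GFP+ over control GFP+ cells and was not called in any comparison. Irs1, which links the insulin and IGF receptors to PI3K, was higher by 1.25 ± 0.14 in PAX3-FKHR GFP+ cells and by 0.93 ± 0.14 in control GFP+ cells, each relative to GFP- cells (adjusted p = 0.000590 and 0.00460). Foxo4 was higher by 0.97 ± 0.21 in PAX3-FKHR GFP+ than in GFP- cells (adjusted p = 0.0219), a call that was lost without any 1 of 4 arrays, replicates 1 and 2 of each group (adjusted p between 0.0655 and 0.0984), and that its second probe set did not give (0.04 ± 0.12).

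Of 32 other FoxO target genes, limma called 1 on its main probe set, Cdkn1a, which encodes the cell cycle inhibitor p21. On other probe sets limma also called Sod2 higher than in GFP- cells, by 0.66 ± 0.15 in PAX3-FKHR GFP+ and 0.57 ± 0.15 in control GFP+ cells. It likewise called Bcl2l11 higher in control GFP+ cells (0.57 ± 0.12). Rictor was called lower in PAX3-FKHR GFP+ (-1.17 ± 0.31) and, on a different probe set, in control GFP+ cells (-1.35 ± 0.34). In PAX3-FKHR GFP+ against GFP- cells the local pooled error test called 4, Cdkn1a, Bcl2l11, Klf2 and Igfbp1, and 7 had an unadjusted p under 0.05. In control GFP+ against GFP- cells it called Cdkn1a alone. It read 8.85, 9.25 and 8.58 in PAX3-FKHR GFP+ cells, 9.51, 9.25 and 9.04 in control GFP+ cells and 6.79, 6.41 and 6.14 in GFP- cells, so that both GFP+ groups overlapped far above GFP- cells. It was higher by 2.44 ± 0.22 in PAX3-FKHR GFP+ than in GFP- cells (adjusted p = 0.000122) and by 2.82 ± 0.22 in control GFP+ than in GFP- cells (adjusted p = 9.37e-05). Of 14 muscle ubiquitin ligases, limma and the local pooled error test called 0 in each comparison on main probe sets. An unadjusted p under 0.05 was reached there by 0 between the GFP+ groups, 3 in PAX3-FKHR GFP+ against GFP- cells and 1 in control GFP+ against GFP- cells. On other probe sets, limma called Itch, Cblb and Usp14 lower in both GFP+ groups than in GFP- cells. In control GFP+ cells Itch stood at -1.06 ± 0.26, -1.04 ± 0.24 and -0.56 ± 0.14, Cblb at -1.65 ± 0.33 and Usp14 at -0.76 ± 0.18. Trim54, the MuRF relative of Trim63, stood at 0.28 ± 0.14 in PAX3-FKHR GFP+ and 0.31 ± 0.14 in control GFP+ relative to GFP- cells (adjusted p = 0.295 and 0.231).

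Among PGC-1 coactivators and partner factors, 4 of 22 were called higher and 1 lower in PAX3-FKHR GFP+ than in GFP- cells. The shares of all genes were 3.9% and 2.79%. Control GFP+ cells against GFP- cells gave 2 and 1, beside 2.79% and 1.93% of all genes. Ppargc1b, the paralogue of Ppargc1a, read 7.89, 7.85 and 8.31 in PAX3-FKHR GFP+ cells, 7.32, 6.95 and 8.29 in control GFP+ cells and 4.68, 4.50 and 5.59 in GFP- cells. Both GFP+ groups lay far above GFP- cells and overlapped each other. It was higher by 3.10 ± 0.36 in PAX3-FKHR GFP+ than in GFP- cells (adjusted p = 0.000615) and by 2.60 ± 0.36 in control GFP+ than in GFP- cells (adjusted p = 0.00258), with 0.50 ± 0.36 between the GFP+ groups (adjusted p = 0.808). Nrf1, a nuclear respiratory factor, fell by 0.80 in PAX3-FKHR GFP+ cells relative to GFP- cells (SE 0.15, adjusted p = 0.00891) and by 0.65 in control GFP+ cells (SE 0.15, adjusted p = 0.0285). The orphan receptor Esrra was higher by 0.68 ± 0.13 and 0.53 ± 0.13 in the same comparisons (adjusted p = 0.0115 and 0.0399). The control GFP+ calls of Nrf1 and Esrra were lost without any 1 of 5 of the 6 arrays, all except control GFP+ replicate 3, with adjusted p between 0.0528 and 0.101 and between 0.0725 and 0.125. In PAX3-FKHR GFP+ cells the call of Nrf1 was lost without PAX3-FKHR GFP+ replicate 2 (adjusted p = 0.0530), and that of Esrra without PAX3-FKHR GFP+ replicate 2 or GFP- replicate 1 (adjusted p of 0.0508 and 0.0651). Esrra was called on 1 of its 2 probe sets, the second standing at 0.29 ± 0.23 in PAX3-FKHR GFP+ and 0.24 ± 0.23 in control GFP+ over GFP- cells, and Nrf1 on 2 of its 4 in each comparison.

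Of 20 mitochondrial genes that PGC-1alpha regulates in adult tissues, 3 were called higher in PAX3-FKHR GFP+ than in GFP- cells, beside 3.9% of all genes. They were Fndc5, by 1.20 ± 0.25 (adjusted p = 0.0160), Cycs, by 0.61 ± 0.15 (adjusted p = 0.0373), and Idh3a, by 0.56 ± 0.15 (adjusted p = 0.0487). These encode the precursor of the secreted peptide irisin, cytochrome c and a subunit of isocitrate dehydrogenase. The call of Fndc5 was lost on leaving out either of the PAX3-FKHR GFP+ replicates 1 and 2, or either of the GFP- replicates 2 and 3 (adjusted p between 0.0568 and 0.0751). Those of Cycs and Idh3a were lost without any 1 of 5 of the 6 arrays, all except GFP- replicate 3 (adjusted p between 0.0633 and 0.125 and between 0.119 and 0.141). Cycs and Idh3a were each called on 3 of their 4 probe sets and Fndc5 on both of its own. In control GFP+ over GFP- cells limma called 0 of the 20 on their main probe sets, of which 9 had an unadjusted p under 0.05, and the local pooled error test called 1, Fndc5. On another probe set each, limma called Cycs (0.75 ± 0.15) and Idh3a (0.67 ± 0.16) higher in that comparison. The medians of the list were 0.29 and 0.26 over GFP- cells in PAX3-FKHR GFP+ and control GFP+ cells and 0.09 between the GFP+ groups.

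In the GADD45 family and stress list, with 17 genes measured, 2 were called higher and 1 lower in PAX3-FKHR GFP+ than in GFP- cells. The shares of all genes were 3.9% and 2.79%. In control GFP+ against GFP- cells 2 were called higher, beside 2.79% of all genes. Gadd45g, a paralogue of Gadd45a, read 7.75, 7.72 and 7.19 in PAX3-FKHR GFP+ cells, 7.82, 7.83 and 7.68 in control GFP+ cells and 6.23, 6.67 and 6.53 in GFP- cells. Both GFP+ groups were above GFP- cells, by 1.07 ± 0.18 in PAX3-FKHR GFP+ (adjusted p = 0.00589) and 1.30 ± 0.18 in control GFP+ cells (adjusted p = 0.00293), whereas Gadd45a was lowest in control GFP+ cells. Gadd45b stood at 0.39 ± 0.16 and 0.22 ± 0.16 in these comparisons, with no call. Plk2, a polo-like kinase of the stress response, was higher by 2.56 ± 0.39 in PAX3-FKHR GFP+ than in GFP- cells (adjusted p = 0.00339) and by 1.89 ± 0.39 in control GFP+ than in GFP- cells (adjusted p = 0.0191). The second of these calls was lost without any 1 of 4 arrays, replicates 1 and 2 of each group (adjusted p between 0.0516 and 0.0748). The second probe set of Plk2 was called in neither comparison (0.06 ± 0.09 and 0.09 ± 0.09). Pcna, the sliding clamp of DNA replication, fell by 0.55 in PAX3-FKHR GFP+ cells relative to GFP- cells (SE 0.09, adjusted p = 0.00421).

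Of 19 CDK inhibitors and partners, 2 were called higher and 2 lower in PAX3-FKHR GFP+ than in GFP- cells, beside 3.9% and 2.79% of all genes. In control GFP+ against GFP- cells limma and the local pooled error test called 0 on main probe sets, with 5 at an unadjusted p under 0.05. On another probe set limma called Rbl1 lower there (-0.66 ± 0.15, adjusted p = 0.0309). Cdkn1c, which encodes p57, the closest relative of p27, read 12.74, 13.06 and 12.70 in PAX3-FKHR GFP+ cells, 12.31, 12.26 and 11.65 in control GFP+ cells and 11.70, 11.65 and 11.47 in GFP- cells. It was higher by 1.22 ± 0.17 in PAX3-FKHR GFP+ than in GFP- cells (adjusted p = 0.00197), and 0.76 ± 0.17 over control GFP+ cells was not called (adjusted p = 0.127), but was with the replicate block on the 6 arrays (adjusted p = 0.0306). Cyclin E1, Ccne1, was higher by 0.69 ± 0.14 in PAX3-FKHR GFP+ than in GFP- cells (adjusted p = 0.0152), a call that was lost without PAX3-FKHR GFP+ replicate 2 or 3 (adjusted p of 0.0643 and 0.0725). The kinase gene Cdk6 fell by 0.61 (SE 0.15, adjusted p = 0.0358), and this call was lost without any 1 of 5 of the 6 arrays, all except GFP- replicate 2 (adjusted p between 0.0976 and 0.116). It was made on 1 of the 3 probe sets of Cdk6, the others standing at -0.74 ± 0.21 (adjusted p = 0.0627) and -0.08 ± 0.14.

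Of 20 sestrin partners and mTORC1 genes, Rragd, a Rag GTPase that brings mTORC1 to the lysosome, was the 1 gene that limma called on its main probe set. The local pooled error test called it too, and Tsc2 as well in PAX3-FKHR GFP+ against GFP- cells. On another probe set each, limma called Depdc5 and Tsc1 lower than in GFP- cells, at -0.99 ± 0.16 and -1.01 ± 0.19 in PAX3-FKHR GFP+ cells. In control GFP+ cells these stood at -1.27 ± 0.16 and -1.12 ± 0.19, also called. Depdc5 has 6 probe sets and Tsc1 has 3. Their main ones were not called, at 0.07 ± 0.22 and 0.08 ± 0.17 in PAX3-FKHR GFP+ cells relative to GFP- cells. In control GFP+ cells the main ones stood at 0.32 ± 0.22 and -0.12 ± 0.17. On its main probe set Rragd read 9.80, 10.03 and 9.67 in PAX3-FKHR GFP+ cells, 8.86, 9.04 and 8.55 in control GFP+ cells and 7.52, 7.78 and 8.27 in GFP- cells, without overlap between groups. The difference was 1.98 ± 0.21 in PAX3-FKHR GFP+ over GFP- cells (adjusted p = 0.000354), 0.96 ± 0.21 in control GFP+ over GFP- cells (adjusted p = 0.0231) and 1.02 ± 0.21 in PAX3-FKHR GFP+ over control GFP+ cells, which was not called (adjusted p = 0.0828). With the replicate block on the 6 arrays this last difference was called (adjusted p = 0.013). The call in control GFP+ cells was lost without any 1 of 4 arrays, replicates 1 and 2 of each group (adjusted p between 0.0686 and 0.0808), and was made on 1 of the 3 probe sets of Rragd, the others standing at 0.50 ± 0.22 and 0.19 ± 0.10. In PAX3-FKHR GFP+ over GFP- cells 2 of the 3 were called. Sesn2 stood at -0.09 ± 0.17 in PAX3-FKHR GFP+ and 0.14 ± 0.17 in control GFP+ relative to GFP- cells.

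In the PDK list, with 13 genes measured, Dlat, which encodes the acetyltransferase of the pyruvate dehydrogenase complex, was called higher in PAX3-FKHR GFP+ than in GFP- cells, by 0.50 ± 0.13 (adjusted p = 0.0435), and the call was lost without any 1 of the 6 arrays (adjusted p between 0.0667 and 0.173). It was made on 2 of the 3 probe sets of Dlat. The paralogues Pdk1, Pdk2 and Pdk3 stood at 0.51 ± 0.18, 0.02 ± 0.10 and -0.40 ± 0.16 in the same comparison, with no call. Of 14 thioredoxin and arrestin-domain genes, Arrdc3, an alpha-arrestin related to Txnip, read 9.13, 8.78 and 8.0 in control GFP+ cells, against 9.62, 9.66 and 9.62 in GFP- cells. It fell by 1.00 in control GFP+ cells (SE 0.24, adjusted p = 0.0333). In PAX3-FKHR GFP+ cells it stood at -0.87 ± 0.24 relative to GFP- cells and was not called (adjusted p = 0.0537). The local pooled error test called Arrdc3 in that comparison, and 0 of the list in control GFP+ against GFP- cells. The limma call in control GFP+ cells was lost without control GFP+ replicate 2 or any 1 of the GFP- arrays (adjusted p between 0.0627 and 0.0961). Arrdc4 stood at -0.24 ± 0.17 in PAX3-FKHR GFP+ and -0.07 ± 0.17 in control GFP+ relative to GFP- cells, with no call.

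**Figure D5:**
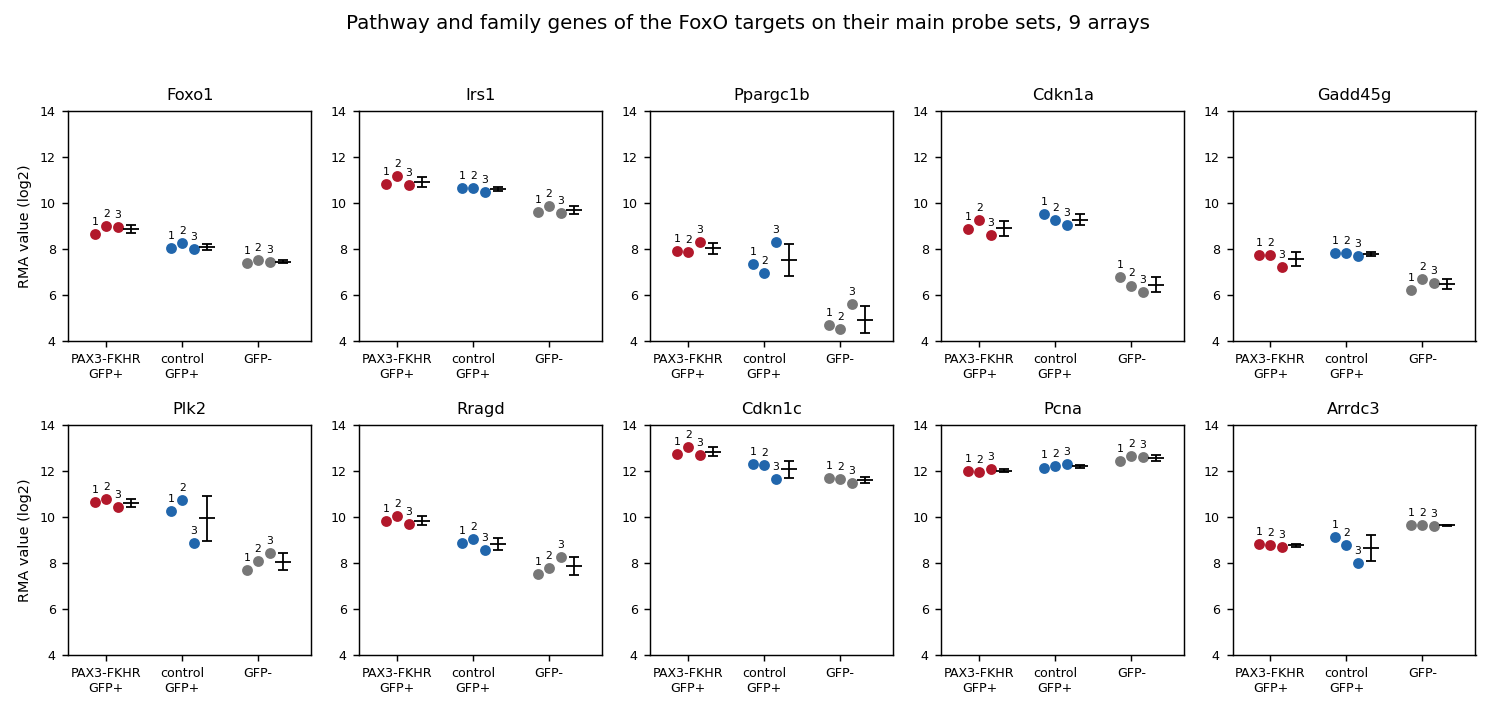
RMA values on the log2 scale of 10 pathway and family genes on the 9 arrays, by group, with points numbered by replicate and bars for the mean ± SD (n = 3). Ppargc1b, Cdkn1a, Gadd45g and Plk2 are high in both GFP+ groups, Foxo1 and Rragd step down through the 3 groups, and Pcna and Arrdc3 are highest in GFP- cells.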

How the data were processed

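RNA of forelimb bud cells sorted by GFP was amplified in 2 cycles and hybridised to 9 Affymetrix Mouse430_2 arrays, 3 per group. The authors made the deposited values with RMA, so that each is a log2 value per probe set after background correction, quantile normalisation and summary over probes. The version of RMA is not given in the sources used here, and present or absent calls were not used here. RMA holds the array medians close (5.08 to 5.13), so that a shift shared by most genes would not be seen. The number of arrays limits the precision, and p-values measure the spread between samples that are pools of embryos.

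After 64 array controls were set aside, 45037 probe sets were fitted in 1 model with limma 3.58.1 (R 4.3.3), with an intensity trend and no block, and 3 contrasts were taken. Genes were named through the platform annotation, in which 34945 probe sets carry 1 symbol, 932 several and 9160 none. Alternatives were a local pooled error test after the methods of the study, here with 100 bins by intensity and a smoothing spline of 10 degrees of freedom, and other scalings, filters, weights, thresholds, probe set rules and fits that leave out each array. The limma and local pooled error scripts were tested on simulated data.

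Replicate numbers come from the sample titles. After removal of the group means, the deviations of a PAX3-FKHR GFP+ array and its control GFP+ counterpart of equal number had an r of 0.164 (replicate 1), 0.472 (replicate 2) and 0.287 (replicate 3), higher than with any other number, and the numbers were taken as pairs for that comparison. No source says what equal numbers share. GFP- arrays did not pair.

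The members, the gene lists and the rule for the genes named were chosen with earlier results of these data known. All 10 members are given on their main and other probe sets, and of each pathway list up to 3 genes called in a comparison, by smallest adjusted p, with Foxo1 and close paralogues of the members. Ppargc1a, Gadd45a and Trim63 also stand in lists that the study chose on these arrays, so their direction here is not independent evidence. Promoter windows are those of RefSeq (GRCm38.p6). Python 3.11.15 and matplotlib 3.10.9 were used for motifs and figures.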

Additional observations from a re-analysis of the deposited data

How the results depend on the processing

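Of 561 member differences recomputed under the alternatives, 533 kept their direction and their side of the threshold, where a difference within 1 standard error of 0 and not called was given no direction. A further 17 came to pass the threshold, 8 no longer passed it and 3 reversed. Between PAX3-FKHR GFP+ and control GFP+ cells, where 0 of the 10 genes were called, 1 was called with each array centred on its median, with quantile normalisation applied again, with the filter at the median of all values and with the probe sets of a gene averaged, in each case Ppargc1a (adjusted p 0.0491, 0.0439, 0.0375 and 7.57e-05). With array weights, the local pooled error test or the replicate block on the 6 arrays 2 were called, Ppargc1a and Gadd45a. With the block on all 9 arrays 0 were called (adjusted p 0.0671 for Ppargc1a and 0.322 for Gadd45a), as without each array in turn (0 to 0). Without the intensity trend 0 were called too (adjusted p 0.0696 for Ppargc1a). The number of Ppargc1a probe sets called was 3 to 4 without each array. With the filter at the median, 1 gene was called higher in control GFP+ than in GFP- cells, in place of 3, and 1 in PAX3-FKHR GFP+ than in GFP- cells, in place of 2, since that filter removes the probe sets of Trim63 and Pdk4. Without each array these counts were 2 to 3 and 2 to 2. The 3 reversals are Cdkn1b, with the mean of its probe sets, at -0.18 in the presence of PAX3-FKHR and 0.10 in control GFP+ over GFP- cells, and Sesn1, without probe sets ending in _x_at or _s_at, at -0.24 in PAX3-FKHR GFP+ over GFP- cells, and none was called. Pdk4 was called in 7 of 12 alternatives in control GFP+ over GFP- cells (adjusted p 0.0130 to 0.149) and in 5 of 12 in PAX3-FKHR GFP+ over GFP- cells (0.00528 to 0.0924), and the cause was not tested. Over all probe sets, 242 were called between the GFP+ groups, against 488 with array weights, 376 with the block on the 6 arrays, 104 with only these arrays, and 104 to 192 without each array. Between PAX3-FKHR GFP+ and GFP- cells 3061 were called in either direction, against 1580 to 2566 without each array. Between control GFP+ and GFP- cells 2631 were called in either direction, against 1617 with the block on the 6 arrays and 1601 to 2787 without each array. Same-numbered arrays correlated by 0.065, 0.068 and -0.205 for control GFP+ with GFP- and by -0.237, 0.155 and -0.288 for PAX3-FKHR GFP+ with GFP-, so that in these comparisons they share only a number. There, with the replicate block on the 6 arrays, Pdk4 was no longer called in control GFP+ over GFP- cells (adjusted p 0.0554) and was called in PAX3-FKHR GFP+ over GFP- cells (adjusted p 0.0332). Beside these, the block changed no other call of a member's main probe set.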
